A study of Oryzias latipes with 15 samples.

Results

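Potassium perchlorate and vitamin C were given to medaka, Oryzias latipes, alone and together, and the question here was whether the testis RNA response to perchlorate differed between fish with and without vitamin C. The 4 groups of this factorial experiment took up 12 of the 15 testis libraries of the series, 3 libraries per group. The control group received neither agent, the perchlorate-alone group 10 mg/L potassium perchlorate, the vitamin C-alone group 3 mg/L vitamin C, and the combined group both agents at these concentrations. The 3 libraries of the lower perchlorate dose were left out by design, and membership followed the treatment labels. Of 23028 measured genes, 17780 had a mean of at least 10 normalized counts over the 12 libraries and were tested. The labels call the replicates biological, but neither fish number per replicate nor age, strain or exposure time is given. The p-values below set a difference between group means against the spread between libraries within groups. That spread was pooled over all groups in the fit.

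Perchlorate is an ion that competes with iodide at the sodium iodide symporter and so lowers iodide uptake and hormone synthesis in the thyroid. Vitamin C is a water-soluble antioxidant and a cofactor of iron-dependent dioxygenases, among them collagen hydroxylases, TET DNA demethylases and JmjC histone demethylases. An interaction is present when the change with perchlorate is not the same with vitamin C as without it. The interaction value of a gene was the log2 change from vitamin C alone to the combined group minus the log2 change from control to perchlorate alone, on log2(normalized count + 1). A positive value, called higher, means that the perchlorate change was more positive or less negative in fish with vitamin C, and a negative value, called lower, the reverse.

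Recovered reads ranged from 3.21 to 21.3 M per library, and the lowest depth belonged to replicate 1 of perchlorate alone. Germ cell and Sertoli cell genes were high in every library, as in testis: the vasa gene ddx4 lay between 7728 and 19218 normalized counts and the anti-Müllerian hormone gene amh (ENSORLG00000015951) between 3372 and 14333. On the first principal component, with 57.7% of the variance, libraries ran from the controls, at -82.0 to -34.8, to perchlorate alone, at 48.2 to 121.3, with vitamin C alone at -42.7 to -20.3 and the combined group at -5.2 to 24.4. Every replicate pair differed by more than sampling noise, with a chi-square per degree of freedom of 3.40 or above. Within the combined group, replicate 1 stood apart: its counts differed from those of replicates 2 and 3 with values of 32.9 and 25.1, against 4.80 between replicates 2 and 3. Replicate 1 of perchlorate alone lay at 52.0 on the second component and the other perchlorate-alone libraries at 7.6 and 12.1.

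The interaction was called for 5045 of 17780 genes, 28.4% of those tested, at an adjusted p under 0.05 by limma. It was higher for 2839 genes, 16.0%, and lower for 2206 genes, 12.4%. Of these genes, 1401 and 1583 reached a value of at least 2-fold. The split rested on the scaling between libraries: 56.3% of called genes were higher as deposited, and 40.2% after rescaling on genes with a mean of at least 500, which moved the median interaction of all genes from -0.08 to -0.27. No gene changed direction between calls under any setting tried. The count depended on which libraries shared the estimate of spread, with 1007 higher and 446 lower when the lower-dose libraries were added to the fit. The lower count fell to 1428 without control replicate 1, 1414 and 1365 without combined replicates 2 and 3, and 1351 and 1156 without vitamin C replicates 2 and 3.

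**Figure D1:**
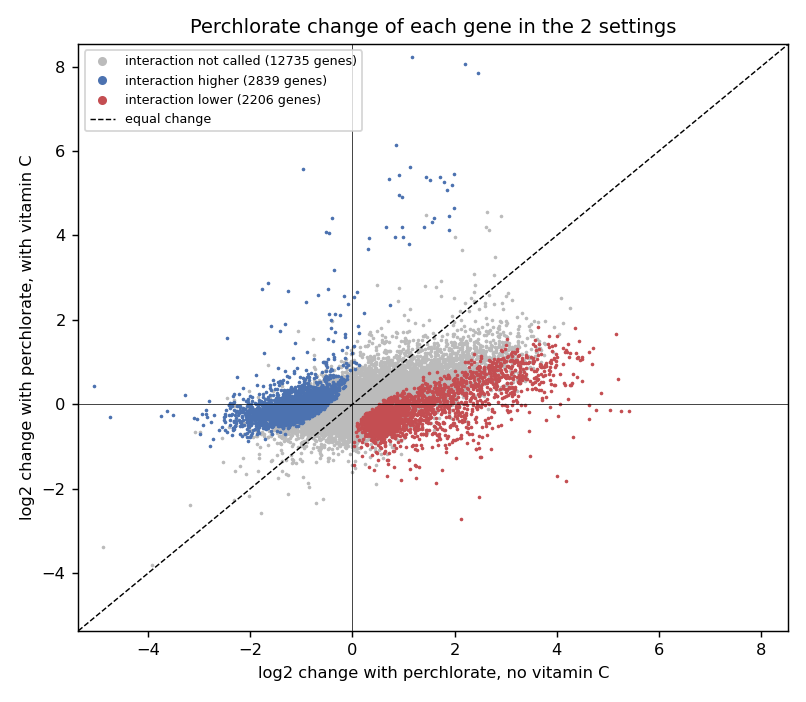
Each point is 1 of 17780 genes, with its log2 change from control to perchlorate alone on the x axis and from vitamin C alone to the combined group on the y axis; colours mark the interaction calls and the dashed line equal changes. Most called genes lie along the x axis, far from 0 without vitamin C and near 0 with it, and a small set of higher genes lies above 2 on the y axis.

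Perchlorate without vitamin C changed 9875 genes, 55.5% of those tested, with 4959 higher and 4916 lower. Against the vitamin C background the same exposure changed 109 genes, 0.613%, of which 99 were higher. The 2 comparisons share no library. Across genes their changes correlated with Pearson's r of 0.483 and Spearman's rho of 0.428, a description over genes that are not independent. The 9875 genes were chosen on the change without vitamin C, so their size there is selected. Among them, 72.4% had the same sign with vitamin C, against 64.6% of all tested genes, and their median change in the direction of the first comparison was 0.99 without vitamin C and 0.18 with it, in log2. The smaller median with vitamin C was seen on both sides: genes that rose had medians of 1.28 and 0.32, and genes that fell had medians of -0.82 and -0.13.

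The count of 109 rested on replicate 1 of the combined group. Without that library, perchlorate with vitamin C changed 2206 genes, 856 higher and 1350 lower, while the interaction counts were 2857 and 2349. The median absolute change with vitamin C was then 0.33, against 0.26 with all libraries and 0.59 for perchlorate without vitamin C. The count was 211 without perchlorate replicate 1, 33 and 40 without combined replicates 2 and 3, and 52, 54 and 53 without vitamin C replicates 1, 2 and 3.

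Read the other way, vitamin C changed 297 genes in fish without perchlorate, 1.67%, and 5194 genes in fish with it, 29.2%. The former count lay between 111 and 937 when 1 library was left out, with 129 and 138 without control replicates 1 and 2, 937 without control replicate 3, 608 and 601 without perchlorate replicates 1 and 2, and 125 and 111 without vitamin C replicates 2 and 3. The latter fell to 3118 and 2907 without combined replicates 2 and 3. Among the 2839 genes with a higher interaction, perchlorate alone was the group whose mean log2 level lay farthest from the mean of the others, and below it, in 2256, or 79.5%. Among the 2206 genes with a lower interaction, perchlorate alone stood apart on the high side in 1355, or 61.4%, and control stood apart on the low side in 542, or 24.6%. In 104 higher genes, 3.66%, the combined group stood apart on the high side. Among genes not called, perchlorate alone stood apart low in 16.8% and high in 29.4%, control low in 10.3% and the combined group high in 5.17%. In called genes the side always followed the sign of the interaction, so the side is not a separate result. These arrangements give the order of the following paragraphs.

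Several genes of kidney and gut epithelium were high with perchlorate alone and near or below the control mean when vitamin C was also given. Of 13 tested members of this list, 6 had a lower interaction, 1 a higher one and 6 did not pass, and the list median was -0.65 against -0.08 over all tested genes. The share called was 53.8%, against 28.4% of all tested genes. The gene slc12a3 encodes the thiazide-sensitive sodium chloride cotransporter of the kidney tubule. Its normalized counts were 58.3, 26.2 and 329.7 in the controls, 2606, 1228 and 2550 with perchlorate alone, 39.5, 34.1 and 66.1 with vitamin C alone, and 33.5, 38.4 and 32.7 in the combined group. All 3 perchlorate-alone libraries lay above all 9 others, and control replicate 3 lay above the other controls. Perchlorate raised slc12a3 by 4.63 ± 0.60 in log2 (SE, n = 3 libraries per group) without vitamin C and gave -0.35 ± 0.60 with it. The interaction was -4.99 ± 0.84, with an adjusted p of 0.00145.

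The same arrangement held for cdh17, a cadherin of intestinal and liver-duct epithelium, and fabp6, the ileal bile acid-binding protein. The counts of cdh17 averaged 167 ± 164 (SD, n = 3) in controls, 950 ± 259 with perchlorate alone, 63.7 ± 17.4 with vitamin C alone and 44.1 ± 6.56 in the combined group, and its interaction was -3.41 ± 0.62, adjusted p = 0.00208. The arrangement was shared by genes that are not on the list but were among the lowest interactions. Interactions of fabp6 and, outside the list, the cathepsin L gene ctsl.1, the keratin gene krt18a.2, the ceramide synthase gene cers3b, zanl and ca15b lay between -4.06 and -3.40, with adjusted p from 0.00137 to 0.00793. In each of these genes the perchlorate-alone libraries lay above all others, and control replicate 3 above the other controls. The gene malb, at 181.0, 202.9 and 215.8 with perchlorate alone and at most 27.5 elsewhere, had an interaction of -3.39 by limma (adjusted p = 0.0115) that edgeR (0.400) and DESeq2 (0.222) did not call. One tubule gene ran the opposite way: lrp2a, the endocytic receptor megalin, fell by 1.67 in log2 with perchlorate alone and had an interaction of 1.72 ± 0.32, adjusted p = 0.0022.

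Alpha globin RNA, the oxygen carrier of red blood cells, was raised by perchlorate without vitamin C and lowered by it with vitamin C. The alpha globin entry Gb-alpha1 (ENSORLG00000005297) had normalized counts of 117.7, 95.9 and 143.4 in controls and 1988, 2942 and 1166 with perchlorate alone. Its counts were 737.1, 615.9 and 731.5 with vitamin C alone and 401.6, 137.9 and 176.4 in the combined group. Every vitamin C library thus exceeded every control, and every combined library lay below every library of either agent alone. With perchlorate this gene rose by 4.0 ± 0.33 in log2 without vitamin C (adjusted p = 2.57e-06) and fell by 1.69 ± 0.33 with it (adjusted p = 0.0267). The interaction was -5.69 ± 0.47, adjusted p = 2.88e-05. The second entry of that symbol (ENSORLG00000005210) gave -5.99 ± 0.55, but the sources do not state how reads shared by near-identical copies were counted.

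Of 10 tested red blood cell genes, 5 had a lower interaction and 5 did not pass, with a list median of -1.36. Of all tested genes, 28.4% were called in either direction and 12.4% were called lower, and their median interaction was -0.08. The embryonic beta globin gene hbbe2 had an interaction of -3.29 ± 0.63 (adjusted p = 0.00264), and slc4a1a, the band 3 anion exchanger of the red cell membrane, one of -2.59 ± 0.60 (adjusted p = 0.00654). For tal1, a transcription factor of blood progenitors, the value was -1.26 ± 0.26 (adjusted p = 0.00336; 0.0798 with the lower-dose libraries in the fit). In bulk testis RNA, a change in the number of cells of a type and a change in RNA per cell cannot be told apart.

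Most oocyte genes were low in controls and higher in all 3 treated groups. Of 10 tested members, 9 had a lower interaction and 1 did not pass, and the median over the list was -2.02. For comparison, 28.4% of all tested genes were called in either direction and 12.4% were called lower, with a median interaction of -0.08. The egg coat gene zp3f.1 had 71.0, 122.1 and 82.4 normalized counts in controls, 525.7, 532.3 and 325.3 with perchlorate alone, 605.6, 650.6 and 1102 with vitamin C alone, and 515.6, 615.7 and 440.2 in the combined group. No control library reached any treated library. Perchlorate raised zp3f.1 by 2.32 ± 0.25 without vitamin C, vitamin C raised it by 3.07 without perchlorate, and perchlorate on top of vitamin C gave -0.54 ± 0.25, which did not pass (adjusted p = 0.224). The combined change was below the sum of the single ones, and the interaction was -2.86 ± 0.35, adjusted p = 0.000472.

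The egg protein gene alv gave -2.92 ± 0.31 (adjusted p = 0.000177) and zar1l, a maternal RNA-binding factor, -2.38 ± 0.35 (adjusted p = 0.000989). The growth factor gene gdf9 was the member that did not pass, at -0.48. The carbonic anhydrase gene ca15b is on this list too but followed the kidney arrangement described above. With the lower-dose libraries in the fit, 2 oocyte genes were called, and zp3f.1 and zar1l were not among the calls (adjusted p = 0.0559 and 0.0769). The lower-dose libraries themselves held summed oocyte counts of 27192 to 291034.

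The antioxidant enzyme gene nqo1, a quinone reductase and a target of the transcription factor Nrf2, followed the oocyte arrangement. It had 81.7, 86.0 and 83.1 normalized counts in controls, 373.5, 300.5 and 213.7 with perchlorate alone, 550.1, 540.5 and 937.9 with vitamin C alone, and 455.4, 579.8 and 432.8 in the combined group. The controls lay within 5 counts of each other and below every treated library. Its interaction was -2.20 ± 0.31, adjusted p = 0.000776 (0.0691 with the lower-dose libraries in the fit). The gene keap1a, which encodes the sensor that holds Nrf2 inactive, had the mirror pattern, at 177 ± 6.31 in controls, 81.2 ± 20.4 with perchlorate alone, 66.9 ± 17.5 with vitamin C alone and 116 ± 28.0 in the combined group, and an interaction of 1.93 ± 0.33, adjusted p = 0.00162.

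The antioxidant and glutathione list, which holds both of these genes, had 48 tested members, of which 3 had a higher interaction, 9 a lower one and 36 did not pass. That was 25.0% called, against 28.4% of all tested genes, and the list median was -0.08, the same as over all tested genes. The peroxidase gene gpx8 was lower, at -1.13 ± 0.25 (adjusted p = 0.0048; 0.0828 with the lower-dose libraries in the fit). Superoxide dismutase sod1 had -0.65 ± 0.26 (adjusted p = 0.0691) and catalase cat 0.31 ± 0.18 (adjusted p = 0.197). The lower count was 4 without control replicate 1 or 2, 5 and 3 without combined replicates 2 and 3, and 4 and 3 without vitamin C replicates 2 and 3. The higher count was 5 without perchlorate replicate 1 and 7 without combined replicate 1.

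**Figure D2:**
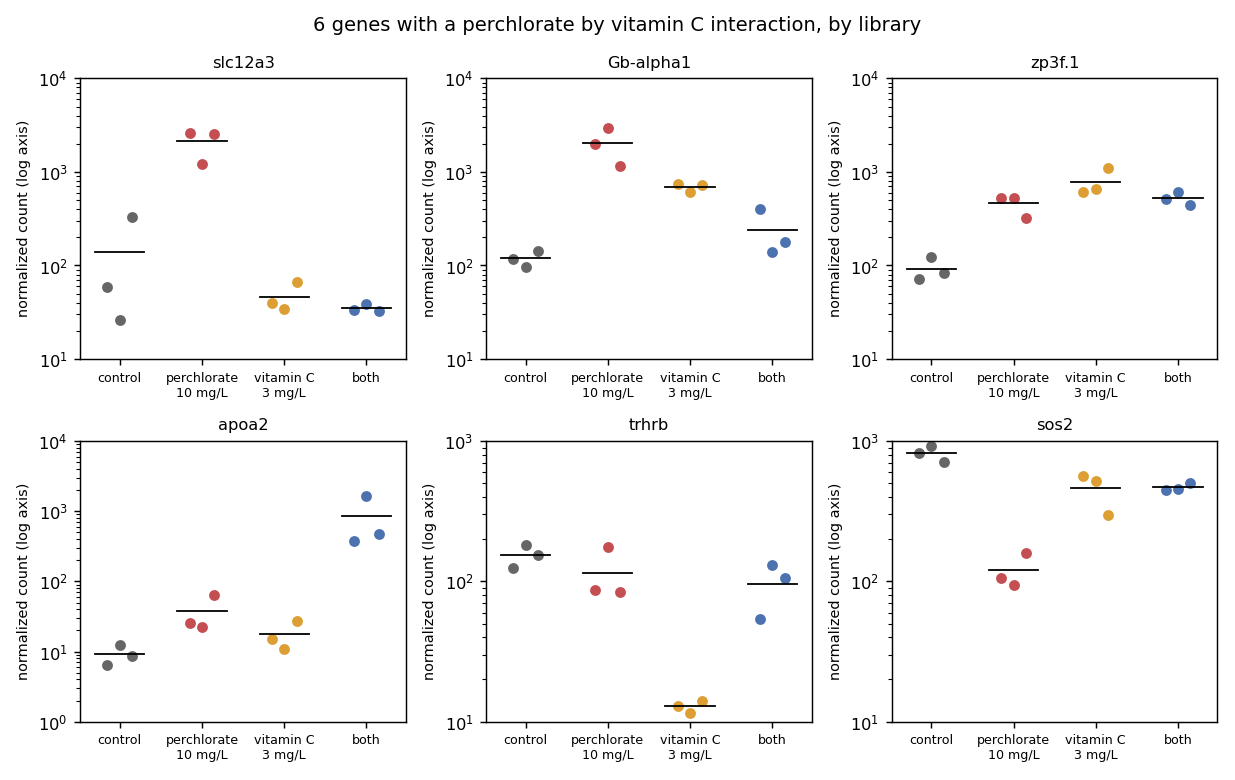
Normalized counts on log axes of 6 genes in the 12 libraries; each point is 1 library and each bar the mean of the 3 libraries of a group, for slc12a3, Gb-alpha1 (ENSORLG00000005297), zp3f.1, apoa2, trhrb and sos2. Perchlorate alone stands apart high in slc12a3 and low in sos2, control low in zp3f.1, the combined group high in apoa2 and vitamin C alone low in trhrb.

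Several plasma protein genes were highest in the combined group. Apolipoprotein apoa2 had 6.36, 12.5 and 8.71 normalized counts in controls, 25.9, 22.5 and 63.8 with perchlorate alone, 15.3, 11 and 27.1 with vitamin C alone, and 381.0, 1678 and 479.4 in the combined group. All 3 combined libraries lay above all 9 others, with replicate 2 highest. Perchlorate raised apoa2 by 5.26 ± 0.50 with vitamin C (adjusted p = 3.55e-05) and by 1.80 ± 0.50 without it (adjusted p = 0.00677). The interaction was 3.46 ± 0.71, adjusted p = 0.00362.

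The complement gene c3-1 averaged 25.5 ± 14.5 counts in controls, 71.0 ± 23.7 with perchlorate alone, 35.9 ± 4.67 with vitamin C alone and 1827 ± 1577 in the combined group, where the libraries held 840.0, 3647 and 995.5. Its interaction was 3.78 ± 0.63, adjusted p = 0.00142. Interactions of cp (ceruloplasmin, the copper-carrying plasma oxidase), fgb (fibrinogen beta chain), apoa1b and tbt-bp1 lay between 3.13 and 3.62, with adjusted p from 0.00203 to 0.00475. The complement factor gene cfbl, at 2.58 ± 0.79 (adjusted p = 0.0238), was not called without combined replicate 2 (0.0772) or vitamin C replicate 2 (0.0528), or with the lower-dose libraries in the fit (0.0649). The genes c3-1, cp, tbt-bp1 and cfbl are not on the liver and plasma protein list. Its called member apoeb averaged 2192 counts in controls, 1552 with perchlorate alone, 1002 with vitamin C alone and 3138 in the combined group. For apoeb, vitamin C alone stood farthest apart, on the low side, and the interaction was 2.025 ± 0.347, adjusted p = 0.0016. Of 17 tested members of the liver and plasma protein list, 5 had a higher interaction and 12 did not pass, with a list median of 0.54. That was 29.4% called, near the 28.4% of all tested genes. The liver fatty acid-binding gene fabp10a was among those 12, at 0.10, with perchlorate changes of 2.11 and 2.20 without and with vitamin C.

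A smaller set was low with vitamin C alone and near control in the combined group. The thyrotropin-releasing hormone receptor gene trhrb had 125.1, 181.9 and 155.5 normalized counts in controls, 86.2, 176.6 and 84.0 with perchlorate alone, 13.0, 11.6 and 14.2 with vitamin C alone, and 53.7, 130.7 and 105.3 in the combined group. The vitamin C-alone libraries lay below all others. With vitamin C, trhrb fell by 3.47 in log2 without perchlorate (adjusted p = 1.12e-05) and by 0.26 with it, which did not pass (adjusted p = 0.555). The interaction was 3.21 ± 0.46, adjusted p = 0.000817. The gene of envoplakin, evpla, a protein of cornified epithelia in mammals, had the same arrangement, with an interaction of 3.26 ± 0.53 (adjusted p = 0.00131).

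The myeloperoxidase gene mpx, a marker of neutrophil granules, was lower with either agent alone and close to control with both. One entry (ENSORLG00000009297) had 429.5, 608.0 and 487.1 normalized counts in controls, 169.5, 134.8 and 149.9 with perchlorate alone, 197.5, 244.2 and 138.0 with vitamin C alone, and 293.3, 465.9 and 621.5 in the combined group. With perchlorate it fell by 1.73 ± 0.24 without vitamin C (adjusted p = 4.06e-05) and rose by 1.22 ± 0.24 with vitamin C (adjusted p = 0.029). The interaction was 2.95 ± 0.34, adjusted p = 0.000373. Both mpx entries were called, and they were the 2 called genes among 20 tested immune genes, of which 18 did not pass. That was 10.0% called, against 28.4% of all tested genes. The list median ran the opposite way to mpx, at -0.72 (-0.16 after quantile normalization). Perchlorate without vitamin C had a list median of 1.04, with 12 members called higher and 2 lower. That comparison called 55.5% of all tested genes in either direction.

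The largest group of called genes was low with perchlorate alone and closer to control in the combined group. The gene sos2 encodes an exchange factor that activates Ras. Its normalized counts were 829.3, 924.5 and 714.3 in controls, 106.3, 95.0 and 158.4 with perchlorate alone, 561.3, 521.2 and 298.5 with vitamin C alone, and 449.3, 456.9 and 499.0 in the combined group. All perchlorate-alone libraries lay below all others, and vitamin C alone lay between them and the controls. With perchlorate sos2 fell by 2.80 ± 0.22 without vitamin C and gave 0.08 ± 0.22 with it, and the interaction was 2.87 ± 0.31, adjusted p = 0.000177. The endoplasmic reticulum chaperone gene canx averaged 867 ± 93.6 in controls, 285 ± 63.6 with perchlorate alone, 734 ± 110 with vitamin C alone and 743 ± 89.6 in the combined group, with an interaction of 1.65 ± 0.24, adjusted p = 0.000913.

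Genes of DNA and histone methylation, for enzymes and for other members of their families and complexes, were among these genes. Of 38 tested members, 16 had a higher interaction, 1 a lower one and 21 did not pass, and the list median was 0.61. That was 44.7% called, against 28.4% of all tested genes. The list medians of the perchlorate change were -0.72 without and -0.12 with vitamin C. The gene KMT2E, a member of the MLL family, had 276.8, 284.1 and 190.3 normalized counts in controls, 69.0, 67.4 and 67.0 with perchlorate alone, 195.2, 154.0 and 109.7 with vitamin C alone, and 146.3, 128.9 and 140.5 in the combined group. Perchlorate alone lay below all other libraries, and the interaction was 1.74 ± 0.29, adjusted p = 0.00144. The gene ash2l, a shared subunit of histone H3 lysine methyltransferase complexes, gave 1.38 ± 0.22 (adjusted p = 0.00129), and ehmt2, a histone methyltransferase of silent chromatin, 1.03 ± 0.21 (adjusted p = 0.00375; 0.0744 with the lower-dose libraries in the fit). The maintenance DNA methyltransferase gene dnmt1 averaged 988 ± 104, 504 ± 108, 723 ± 46.1 and 851 ± 62.5 counts in control, perchlorate alone, the combined group and vitamin C alone, and gave 0.75 ± 0.21 (adjusted p = 0.0144; 0.166 in that larger fit).

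DNA repair genes had 22 higher and 1 lower interaction among 65 tested, with 42 that did not pass and a median of 0.41. That was 35.4% called, against 28.4% of all tested genes. The nuclease gene ercc4, which cuts damaged DNA in nucleotide excision repair, had 768.8, 662.8 and 658.7 normalized counts in controls, 333.2, 288.3 and 330.6 with perchlorate alone, 593.8, 521.2 and 508.5 with vitamin C alone, and 540.6, 608.0 and 622.3 in the combined group. Its interaction was 1.26 ± 0.17, adjusted p = 0.000759. The homologous recombination gene brca2 gave 1.35 ± 0.23 (adjusted p = 0.00165), and PRKDC, the DNA-dependent protein kinase of end joining, 1.13 ± 0.20 (adjusted p = 0.00202). DNA replication genes had 12 higher and 5 lower among 47, and cell cycle genes 13 higher and 4 lower among 51, with medians of 0.25 and 0.18. In these 2 lists 36.2% and 33.3% of members were called, against 28.4% of all tested genes. Their lower counts ran from 2 to 7 and from 1 to 5 when 1 library was left out. Examples with a higher interaction were the replication factor gene mcm10 (1.09 ± 0.19), the topoisomerase gene top2a (1.13 ± 0.25) and the kinase gene cdk2 (0.99 ± 0.18), each low with perchlorate alone. The cell cycle member birc5b had the lowest interaction of its list, at -3.15 ± 0.50 (adjusted p = 0.00126). It averaged 8.38 counts in controls, 41.1 with perchlorate alone, 63.8 with vitamin C alone and 32.6 in the combined group. In the fit with the lower-dose libraries, top2a was not called (adjusted p = 0.0681). With the lower-dose libraries in the fit, the higher counts of the methylation, repair, replication and cell cycle lists were 6, 9, 3 and 4. Rescaling on genes with a mean of at least 500 left the higher counts at 14, 16, 9 and 12, raised the lower counts to 3, 7, 9 and 8, and turned the median of the cell cycle list from 0.18 to -0.01.

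Meiosis genes had 6 higher and 3 lower interactions among 20, with 11 that did not pass, so the interaction calls ran both ways. That was 45.0% called, against 28.4% of all tested genes. Perchlorate without vitamin C called 12 of the 20 members lower and none higher, in a comparison that called 55.5% of all tested genes in either direction. The list medians of the perchlorate change were -0.58 without and -0.38 with vitamin C. The meiotic helicase gene HFM1 gave 1.88 ± 0.37 (adjusted p = 0.00282), and the meiotic cohesin genes rec8b and rad21l1 gave 0.85 ± 0.17 and 0.96 ± 0.24 (adjusted p = 0.00359 and 0.00981). These 3 genes were not called with the lower-dose libraries in the fit (adjusted p = 0.0884, 0.205 and 0.104). The recombinase gene dmc1, at 0.50 ± 0.16 (adjusted p = 0.0319), was not called in that fit (0.376), under the replicate block (0.0528), after the rescaling (0.0903) or without control replicate 1 or 2, combined replicate 2 or 3, or vitamin C replicate 2 or 3 (0.0571 to 0.0919). The higher meiosis count was 3 without vitamin C replicate 2. The lower count was 1 without control replicate 2, combined replicate 2 or 3 or vitamin C replicate 2 or 3, and was 5 and 6 without perchlorate replicate 3 and combined replicate 1.

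Nuclear genes of oxidative phosphorylation, which encode subunits of the respiratory chain and ATP synthase, had lower interactions in 30 of 63 tested members, with 9 higher and 24 that did not pass, and a median of -0.53. In all, 61.9% were called, against 28.4% of all tested genes. Their median perchlorate change was 0.25 without and -0.25 with vitamin C. The complex III gene uqcrb had 1769, 1859 and 2318 normalized counts in controls, 4424, 4414 and 3554 with perchlorate alone, 1990, 2491 and 2979 with vitamin C alone, and 2524, 1778 and 1941 in the combined group. Perchlorate alone lay above all other libraries, and the interaction was -1.32 ± 0.25, adjusted p = 0.00227. The genes ndufa4b and atp5pb, for subunits of the respiratory chain and of ATP synthase, gave -2.05 ± 0.33 (adjusted p = 0.0013) and -0.96 ± 0.18 (adjusted p = 0.00224). The lower count was 7 with the lower-dose libraries in the fit.

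Cytosolic ribosomal protein genes had lower interactions in 27 of 66 members, with 2 higher and 37 that did not pass, and a median of -0.55. In all, 43.9% were called, against 28.4% of all tested genes. The small subunit gene rps24 had 6761, 6970 and 8117 normalized counts in controls, 17912, 15497 and 16725 with perchlorate alone, 7553, 10784 and 12531 with vitamin C alone, and 10248, 8448 and 8189 in the combined group. Its interaction was -1.38 ± 0.27, adjusted p = 0.00282, and the large subunit genes rpl22l1 and rpl37 gave -1.29 ± 0.23 and -1.09 ± 0.24 (adjusted p = 0.00182 and 0.00524). The lower count was 10 with the lower-dose libraries in the fit, 15 without control replicate 2, 17 without combined replicate 3, and 15 and 14 without vitamin C replicates 2 and 3. Of the 13 genes of the mitochondrial genome, ND4L, a complex I subunit, was called, at 1.35 ± 0.43 (adjusted p = 0.0272; 0.0785 with the lower-dose libraries in the fit), and 12 did not pass. The mitochondrial genome share called was 7.69%, below that of all tested genes. Its count was 0 without control replicate 1, perchlorate replicate 2, combined replicate 2 or 3 or vitamin C replicate 3, and 5 and 8 without perchlorate replicate 3 and combined replicate 1.

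**Figure D3:**
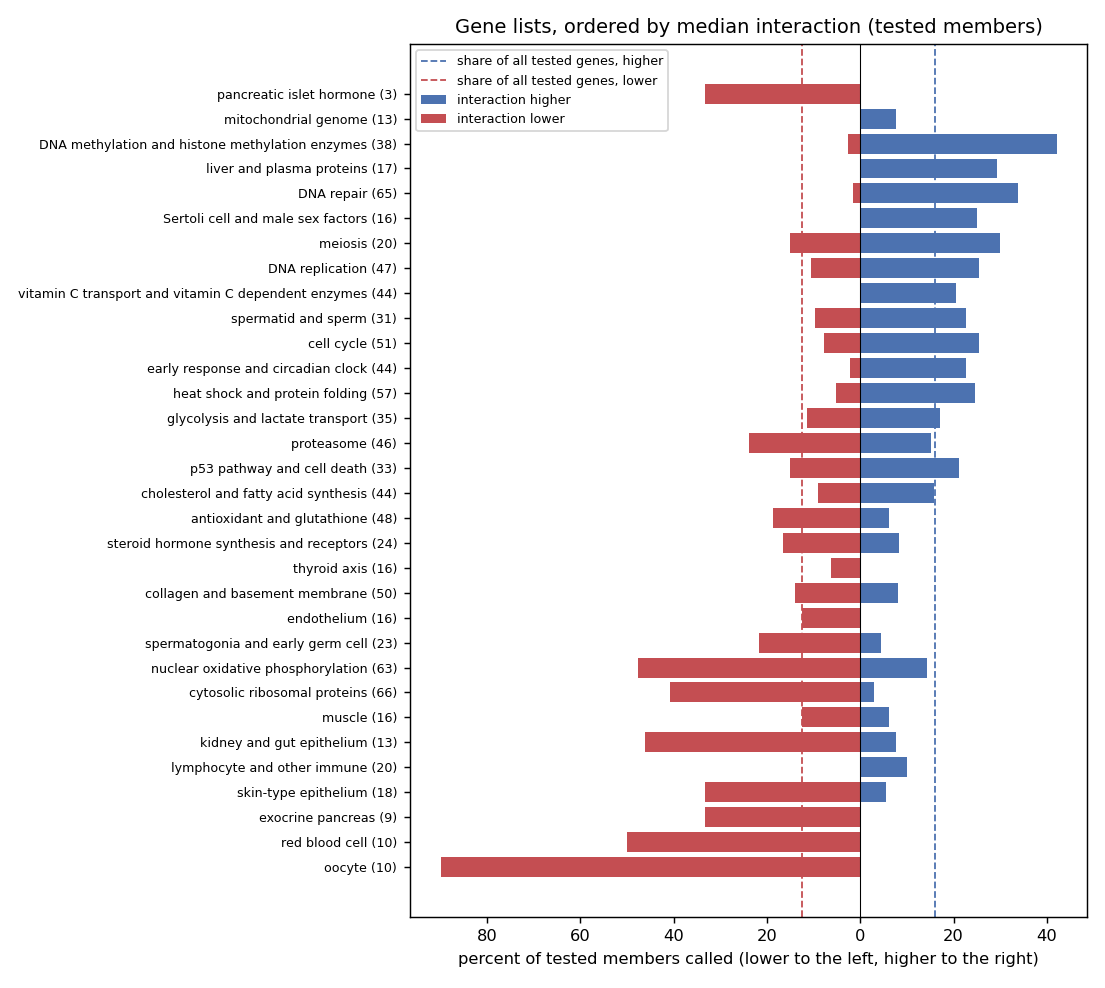
Percent of the tested members of each of 32 gene lists with a lower interaction (red, left) or a higher one (blue, right), ordered by the median interaction of the list; numbers in brackets are tested members and dashed lines the shares of all tested genes, 12.4% and 16.0%. The oocyte, red blood cell, oxidative phosphorylation, kidney and gut, and ribosomal lists reach farthest to the left, and the methylation and DNA repair lists farthest to the right; after rescaling on genes with a mean of at least 500 the medians of the cell cycle (-0.01), heat shock (-0.10), glycolysis (-0.14) and clock (-0.07) lists are negative, and after quantile normalization that of the cholesterol list is positive (0.03).

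Enzymes that use vitamin C, and its transporters, had 9 higher interactions among 44 tested members and none lower. That was 20.5% called, below the 28.4% of all tested genes called in either direction and above the 16.0% called higher. Rescaling on genes with a mean of at least 500 gave 8 higher and 2 lower. The histone demethylase gene kdm5c averaged 1060 ± 128 counts in controls, 437 ± 30.6 with perchlorate alone, 784 ± 126 with vitamin C alone and 695 ± 31.3 in the combined group, and gave 1.11 ± 0.19 (adjusted p = 0.00158). Another demethylase gene, kdm7ab, gave 1.2 ± 0.23 (adjusted p = 0.00231), and plod3, a lysyl hydroxylase of collagen, 1.2 ± 0.25 (adjusted p = 0.00399; 0.0819 with the lower-dose libraries in the fit). The transporter gene SLC23A2 had 0.24 (adjusted p = 0.72) and the DNA demethylase gene TET1 0.49 ± 0.31 (adjusted p = 0.238). The higher count was 5 without control replicate 1, combined replicate 3 or vitamin C replicate 2, and 3 with the lower-dose libraries in the fit.

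Of 16 tested Sertoli cell and male sex factors, 4 had a higher interaction and 12 did not pass. That was 25.0% called, near the 28.4% of all tested genes. The male sex factor gene dmrt1 had 958.6, 849.7 and 951.5 normalized counts in controls, 614.8, 658.2 and 884.4 with perchlorate alone, 914.0, 1060 and 1049 with vitamin C alone, and 1127, 1909 and 1815 in the combined group. The combined libraries lay above all others, and the interaction was 1.02 ± 0.26, adjusted p = 0.00986 (0.224 with the lower-dose libraries in the fit). The more abundant amh entry (ENSORLG00000015951) averaged 12243 ± 2389 counts in controls, 4420 ± 1168 with perchlorate alone, 9737 ± 1457 with vitamin C alone and 6143 ± 1550 in the combined group, and its interaction of 0.80 ± 0.31 did not pass (adjusted p = 0.0655). It was called after quantile normalization (0.0445), with library weights (0.00441), under the replicate block (0.0376), by DESeq2 (0.0265) and without control replicate 3 (0.031) or perchlorate replicate 1 (0.0193). The other amh entry (ENSORLG00000005044) gave 0.79 ± 0.23 (adjusted p = 0.0181), which was not called without control replicate 1 (0.0516), control replicate 2 (0.0519) or combined replicate 3 (0.0519), or with the lower-dose libraries in the fit (0.107). The Sertoli count was 2 without control replicate 1 or 2 or combined replicate 2 or 3. The follicle-stimulating hormone receptor gene fshr, at 0.54 ± 0.21 (adjusted p = 0.0624), did not pass.

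Among 24 steroid hormone genes, 2 had a higher and 4 a lower interaction, also 25.0% called. The cholesterol carrier gene star, the entry step of steroid synthesis, had 397.7, 494.6 and 411.4 normalized counts in controls, 620.5, 414.8 and 885.5 with perchlorate alone, 375.6, 476.7 and 522.6 with vitamin C alone, and 434.3, 253.0 and 222.1 in the combined group. The groups overlapped, and the interaction of -1.14 ± 0.36 (adjusted p = 0.0273) was not called without control replicate 1, perchlorate replicate 3, combined replicate 2 or 3, or vitamin C replicate 2 or 3, or with the lower-dose libraries in the fit (0.0612 to 0.0776). The steroid 17-hydroxylase gene cyp17a2 gave 0.80 ± 0.21 (adjusted p = 0.0117; 0.23 with the lower-dose libraries in the fit), and FDXR, which passes electrons to mitochondrial P450 enzymes, 1.16 ± 0.20 (adjusted p = 0.00171). The lower steroid count was 2 without control replicate 2 and 1 without each of the libraries named for star.

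Of 16 thyroid axis genes, 15 did not pass and 1, or 6.25%, had a lower interaction, against 28.4% of all tested genes called in either direction. That gene was crym, a cytosolic thyroid hormone-binding protein, at -1.06 ± 0.29 (adjusted p = 0.0141; 0.119 with the lower-dose libraries in the fit). The sodium iodide symporter gene slc5a5, the target that perchlorate blocks, averaged 268 ± 8.91 counts in controls, 245 ± 53.7 with perchlorate alone, 261 ± 39.7 with vitamin C alone and 313 ± 33.0 in the combined group. Its interaction was 0.42 ± 0.23 (adjusted p = 0.183; 0.0499 without perchlorate replicate 3). The thyroid list count was 2 without control replicate 3 and 3 without perchlorate replicate 1.

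Early germ cell genes had 1 higher and 5 lower interactions among 23 tested, 26.1% called against 28.4% of all tested genes. The stem cell receptor gene kita rose from 7.78 ± 0.61 counts in controls to 66.8 ± 23.4 with perchlorate alone, with 13.7 ± 4.58 with vitamin C alone and 22.5 ± 7.96 in the combined group, and gave -2.24 ± 0.53 (adjusted p = 0.00755). The transcription factor gene sall4 gave -2.03 ± 0.49 (adjusted p = 0.00793), and tdrd1, a protein of the piRNA pathway, 0.82 ± 0.19 (adjusted p = 0.00657). The germ cell helicase gene ddx4 fell by 0.62 with perchlorate alone and had an interaction of 0.14 ± 0.24 (adjusted p = 0.684), which was -0.05 after rescaling on genes with a mean of at least 500. Spermatid and sperm genes had 7 higher and 3 lower among 31, 32.3% called, also near the share of all tested genes. Examples were the axonemal genes CFAP91, at 1.14 ± 0.24 (adjusted p = 0.00384), and RSPH4A, at 0.83 ± 0.22 (adjusted p = 0.013). Neither was called with the lower-dose libraries in the fit (adjusted p = 0.10 and 0.294). The higher spermatid count was 4 without control replicate 2 and 11 without perchlorate replicate 1. The lower count was 0 or 1 without control replicate 1, combined replicate 2 or 3 or vitamin C replicate 2 or 3, and 5 without perchlorate replicate 2 or combined replicate 1.

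Summed levels of markers of other tissues also differed between the groups. Summed normalized counts of 20 kidney and gut genes were 1630 to 2635 in controls, 3900 to 6282 with perchlorate alone, 1367 to 1529 with vitamin C alone and 1249 to 1433 in the combined group. Summed counts of 10 oocyte genes were 328.7 to 436.9, 1400 to 1896, 1804 to 2901 and 1328 to 1666 in the same order, and those of 21 liver and plasma genes 2864 to 4136, 3334 to 4958, 2044 to 2594 and 5219 to 15669. No oocyte gene was at 0 in any library, and at most 3 kidney and gut or liver genes were at 0 in a library. Within the kidney and gut sum, with means of 5277 with perchlorate alone and 1984 in controls, slc12a3 averaged 2128 and 138. Its members cdh17, fabp6 and malb averaged 950, 325 and 200 with perchlorate alone, and 167, 17.5 and 11.4 in controls. The rise of this sum thus came largely from genes already named. Within the liver and plasma sum, with means of 3560 in controls and 2329 with vitamin C alone, apoeb averaged 2192 and 1002. The median vitamin C change without perchlorate over the tested liver and plasma genes was 0.23 in log2. The sum of 11 exocrine pancreas genes was 195.1 to 389.3 in controls, 912.0 to 1209 with perchlorate alone, 244.7 to 469.6 with vitamin C alone and 416.6 to 739.9 in the combined group, with up to 2 genes at 0. Calls covered 33.3% of its 9 tested genes, against 28.4% of all tested genes in either direction and 12.4% called lower. All 3 called genes had a lower interaction, among them the elastase gene CELA1, at -2.55 ± 0.46 (adjusted p = 0.00195). That count was 1 without control replicate 1, combined replicate 1 or vitamin C replicate 2 or 3.

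Of 18 genes of skin-type epithelium, 6 had a lower interaction and 1 a higher one, with 3 lower without control replicate 1 or 2 and 3 higher without combined replicate 1. Among these genes 38.9% were called, against 28.4% of all tested genes. Their summed counts, over 19 genes with none at 0, were 8912 to 10473 in controls, 11310 to 12873 with perchlorate alone, 6831 to 7548 with vitamin C alone and 6948 to 9372 in the combined group. Sums of the 10 red blood cell genes, a list that does not hold the Gb-alpha1 entries, were 1365 to 1560, 1908 to 2398, 1393 to 1700 and 1230 to 1361 in that order, with none at 0. The part of tissue composition in the interaction of these or other genes was not tested.

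**Figure D4:**
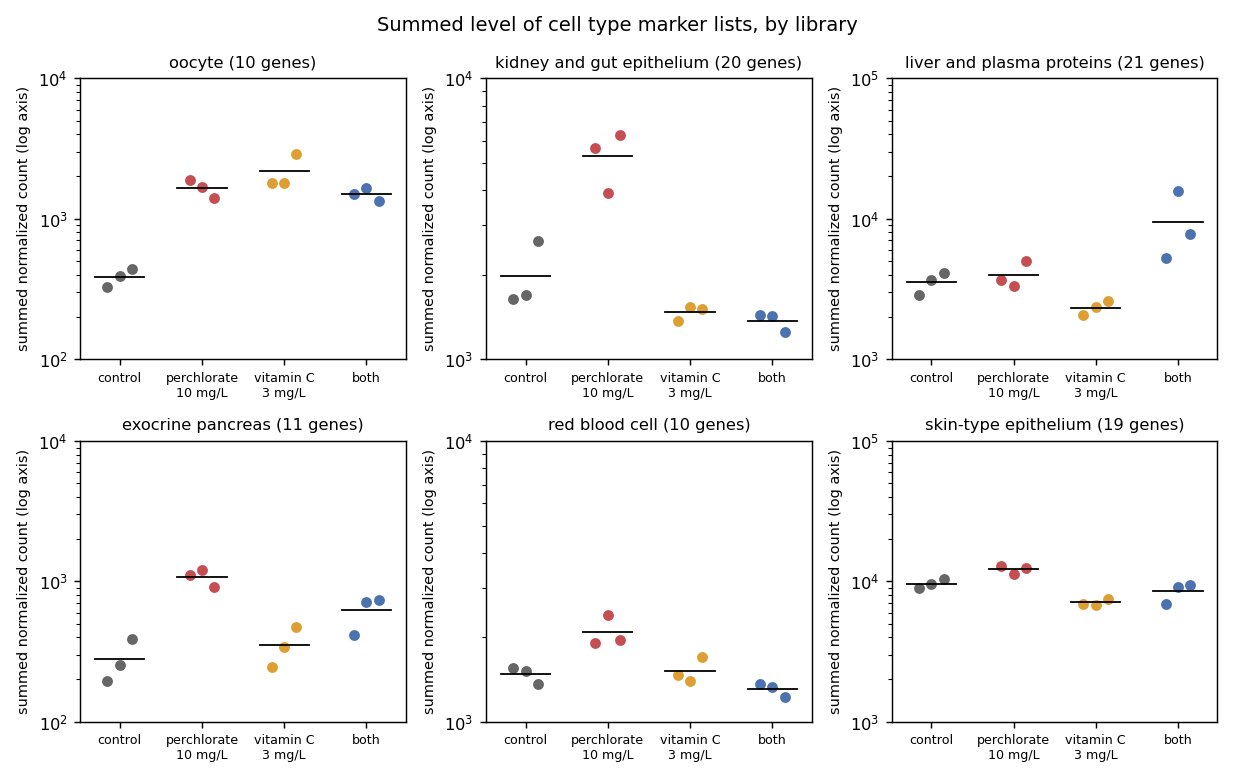
Summed normalized counts, on log axes, of 6 cell type marker lists in the 12 libraries; each point is 1 library and each bar the mean of 3. The kidney and gut, exocrine pancreas, red blood cell and skin sums are highest with perchlorate alone, the oocyte sum is lowest in controls, and the liver and plasma sum is highest in the combined group.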

How the data were processed

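Testis RNA libraries were made from total RNA with a NEBNext Ultra II kit, per the labels' protocols. Per the submitters' processing notes, DESeq2 1.34.0, STAR 2.7.7a and fastp 0.23.2 were among the authors' tools. Genome build, counter, strand setting and handling of shared reads are not stated in those notes or labels, so near-identical copies and overlapping genes are uncertain. The deposited table holds a signal, a normalized read count per gene and library. All 345420 values were whole multiples of a step per library, within 0.001, which gave back whole reads.

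The test was limma 3.58.1 in R 4.3.3, with its trend option, on log2(value + 1), over 12 libraries in 4 group means. Calls had a Benjamini-Hochberg adjusted p below 0.05 across all 17780 genes whose mean reached 10. Same-numbered libraries of perchlorate alone and the combined group deviated together (correlations 0.370, 0.200 and 0.126), which was not so in every pair across the 4 groups, so the replicate block was an alternative. Folds understate the change of low genes. Errors are SE for changes and SD for levels, with n = 3. edgeR 4.0.16 and DESeq2 1.42.0 on the recovered reads were alternatives.

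The experiment, the 32 gene lists and the naming rule were chosen with earlier results of these data known. The rule took the 12 highest and 12 lowest called interactions of genes that have a symbol and a mean of 50 or more, up to 3 called members per list in order of adjusted p, and 31 panel symbols, of which 24 entries were tested, 5 called higher, 2 called lower and 17 did not pass. The text names a part of these. The genes gdf9, fabp10a, GCG, cacng6a and the entries named only by an identifier were chosen after their values were seen.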

Additional observations from a re-analysis of the deposited data

Results flagged for a closer look

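The perchlorate response differed between fish with and without vitamin C, by the test of the difference itself, in 2839 genes in the higher direction and 2206 in the lower one. In 8 entries both perchlorate changes passed the test with opposite signs, 0.141% of the higher and 0.181% of the lower genes. Both passed with the same sign in 12 higher and 2 lower genes. Without combined replicate 1, opposite signs held for 306 of the interaction genes and the same sign for 98. Perchlorate raised both Gb-alpha1 entries without vitamin C and lowered them with it, with interactions of -5.99 (ENSORLG00000005210) and -5.69 (ENSORLG00000005297). The glucagon gene GCG, with 30.0 ± 4.08 normalized counts with perchlorate alone and 49.7 ± 20.4 with vitamin C alone against 8.96 ± 1.39 in controls and 13.3 ± 7.38 in the combined group, had -3.51. ENSORLG00000019292 had -4.84, with 65.0 ± 13.5 counts with vitamin C alone and at most 31.1 in any other library. The fall with perchlorate in fish with vitamin C had adjusted p by limma of 0.0484 (ENSORLG00000005210), 0.0267 (ENSORLG00000005297), 0.0388 (GCG) and 0.0492 (ENSORLG00000019292).

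The other 4 entries were lowered by perchlorate without vitamin C and raised with it. The calcium channel subunit gene cacng6a had an interaction of 4.50, with 34.2 ± 6.90 counts in controls and 3.22 or fewer in each library of vitamin C alone. ENSORLG00000000623 had 3.24, and the mpx entries had 2.95 (ENSORLG00000009297) and 2.13 (ENSORLG00000009349). No cause of these sign changes was tested.

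Outside the 12 libraries, the lower perchlorate dose of 0.01 mg/L had a mean summed oocyte count of 149557.5, against 386 in controls, over 10 genes and 3 libraries per group.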

How the results depend on the processing

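The table was refitted under 11 other settings and without each of the 12 libraries. No interaction call changed direction in any of them. With all 15 libraries in the fit the interaction counts were 1007 higher and 446 lower, and 48 genes were called for perchlorate with vitamin C, 66 for vitamin C without perchlorate and 1852 for vitamin C with perchlorate. A mean of at least 50 gave 60 and 185 for the former 2 of these. Library weights, which ran from 0.251 to 5.70 and were fitted gene by gene because the default fit did not converge, gave 4457 higher, 4439 lower, 8477 for perchlorate with vitamin C and 6831 for vitamin C without perchlorate. DESeq2 gave 499 and 775 for these. Without 1 library the interaction counts ran from 1991 to 3202 higher and 1156 to 2890 lower. Perchlorate with vitamin C ran from 33 to 2206, vitamin C without perchlorate from 111 to 937 and vitamin C with perchlorate from 2907 to 5853. Perchlorate without vitamin C stayed within 1.5 times of 9875 in every refit.

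Of 18 correlations between the deviations of same-numbered libraries, 8 exceeded 0.1 (range -0.209 to 0.370). All 3 between perchlorate alone and the combined group exceeded it (0.370, 0.200 and 0.126), and in no other pair of groups did all 3. The labels give replicate numbers but state no pairing, and 3 correlations per pair of groups cannot establish one. For vitamin C in fish with perchlorate, the replicate block gave 5223 calls against 5194. For the interaction the replicate block gave 2807 higher and 2291 lower interactions, of which 2726 and 2118 were shared with the fit without it, and 230 genes for perchlorate with vitamin C.

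Of 2699 refitted values of 118 single genes, 2568 kept direction and call, 110 lost the call, 19 gained it and 2 changed sign. Most of the 118 genes were named because they were called in the main fit, so these counts do not describe all tested genes. The luteinizing hormone receptor gene lhcgr, -0.34 as deposited, was 0.06 after quantile normalization, and ddx4, 0.14 as deposited, was -0.05 after rescaling on genes with a mean of at least 500. Neither was called in either setting. The cause of these differences was not tested. At 3 libraries per group the median standard error of an interaction was 0.29 in log2. A call at an adjusted p under 0.05 took a value well above its standard error. Values near 0.29 were thus mostly not detectable, and larger ones could be missed too.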

Other observations

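Of 57 heat shock and folding genes, 14 had a higher interaction and 3 a lower one, with ranges of 8 to 15 and 0 to 7 when 1 library was left out. The 29.8% called was near the 28.4% of all tested genes. Besides canx, the co-chaperone gene dnaja2a gave 0.89 ± 0.18 (adjusted p = 0.00333; 0.0779 with the lower-dose libraries in the fit) and sel1l, a part of the machinery that degrades misfolded secretory proteins, 0.93 ± 0.20 (adjusted p = 0.00481). Proteasome genes had 7 higher and 11 lower among 46, 39.1% called. Their higher count was 4 without control or vitamin C replicate 2, and their lower count 6 without combined replicate 2 and 7 and 5 without vitamin C replicates 2 and 3. The germ cell subunit gene psma8 had 2084, 2012 and 2322 normalized counts in controls, 6633, 3902 and 3301 with perchlorate alone, 2734, 3499 and 4070 with vitamin C alone, and 3185, 1661 and 1698 in the combined group, and gave -1.75 ± 0.36 (adjusted p = 0.00374; 0.0691 with the lower-dose libraries in the fit). The subunit genes psmb5 and psmc6, low with perchlorate alone, gave 0.92 ± 0.21 (adjusted p = 0.00551; 0.0713 in that fit) and 0.99 ± 0.20 (adjusted p = 0.00338). Among 33 genes of the p53 pathway and cell death, 7 were higher and 5 lower, 36.4% called, with 3 lower without vitamin C replicate 3. The p53 ligase gene mdm2 gave 1.19 ± 0.21 (adjusted p = 0.00195), and BIRC6, an inhibitor of apoptosis, 2.27 ± 0.43 (adjusted p = 0.0023).

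Lipid and sugar metabolism also held members of both signs. The desaturase gene fads2 averaged 159 ± 30.5 counts in controls, 556 ± 139 with perchlorate alone, 152 ± 12.8 with vitamin C alone and 139 ± 24.8 in the combined group, and gave -1.92 ± 0.27 (adjusted p = 0.000802). The lipogenic gene acaca gave 1.27 ± 0.27 (adjusted p = 0.00399). The cholesterol and fatty acid list had 7 higher and 4 lower among 44, and glycolysis 6 higher and 4 lower among 35, with aldocb at 1.25 ± 0.22 (adjusted p = 0.00189). The shares called in these lists, 25.0% and 28.6%, were near the 28.4% of all tested genes. The lower counts of both lists were 2 without control replicate 1 or 2, combined replicate 2 or vitamin C replicate 2 or 3, and that of the cholesterol list also without perchlorate replicate 3 or combined replicate 3. The higher glycolysis count was 3 without combined replicate 2 or vitamin C replicate 2. Clock and early response genes had 10 higher and 1 lower among 44, with 6 higher without control replicate 2 or vitamin C replicate 3, and 3 lower without perchlorate replicate 1 and 2 without control replicate 3 or perchlorate replicate 3, and the clock output genes hlfa and tefa gave 1.2 ± 0.24 and 0.88 ± 0.19 (adjusted p = 0.00285 and 0.00404; tefa 0.0541 with the lower-dose libraries in the fit). Collagen and basement membrane genes had 4 higher and 7 lower among 50, with ranges of 1 to 5 and 2 to 11 when 1 library was left out. The shares called were 25.0% of the clock list and 22.0% of the collagen list, below the 28.4% of all tested genes. Muscle genes had 1 higher (1 to 2) and 2 lower (1 to 3) among 16, endothelial genes 2 lower (1 to 3) among 16, with flt4 at -2.13 ± 0.55 (adjusted p = 0.0105), and islet hormone genes 1 lower (0 to 1) among 3, with ranges over the same refits in brackets. The shares called were 18.8%, 12.5% and 33.3%. The islet list, which does not hold GCG, had a median interaction of 1.02 and values from -1.79 to 1.32, so its called member ran against the list median.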
